A study of Mus musculus with 12 samples.

Results

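The expression of 33 genes of glycolysis and of the response to low oxygen was measured in the pylorus, the muscular outlet of the stomach, of wild-type mice and of mice that develop gastric tumours. The genes were taken from a fixed list of symbols, 33 of the 23420 symbols in the count table. All 33 were found, and 32 had enough counts to be tested. The exception was Eno1, the ubiquitous enolase, with 0 to 3 counts per library. RNA came from bulk pyloric tissue of C57BL/6 animals at 60 days of age (D60) and 80 days (D80), with 3 libraries in each of 4 groups, 12 in all. The wild-type groups are D60WT and D80WT, and the groups with the CEA424-SV40 T Ag transgene are D60SV and D80SV. In that transgene a carcinoembryonic antigen promoter drives T antigen of simian virus 40, so the promoter decides which cells carry the oncoprotein. The labels give no treatment and do not say that libraries came from separate animals, so p-values measure the spread between these libraries, which may be partly technical.

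Glycolysis converts glucose to pyruvate. Transporters bring glucose in, hexokinases trap it, phosphofructokinase commits it, and the later enzymes yield ATP, pyruvate and, through lactate dehydrogenase, lactate. When oxygen is plentiful, prolyl hydroxylases of the Egln family mark the alpha subunits of hypoxia-inducible factor (HIF) for destruction. When oxygen is low, HIF1A escapes that mark, pairs with ARNT and binds a short core motif in many of the genes listed here, including most glycolytic genes, Bnip3, Car9 and its own hydroxylases. HIF1A is controlled largely at the protein level, which RNA does not measure. The stomach wall joins mucous epithelium, endocrine cells and thick smooth muscle, and the muscle form of phosphofructokinase and aldolase A serve glycolysis in muscle.

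The core motif is ACGTG or GCGTG, searched on both strands (so that CACGT and CACGC also count, and CACGTG counts once per strand) in the 250 bases before each gene's start, taken from RefSeq on GRCm38.p6. Gene coordinates given below come from GENCODE, whose outer bounds can differ. The windows of Hif1a, P4ha2, Higd1a and Ldha lie inside those bounds. Of the 33 genes, 32 had such a window (Ndrg1 had none, and Ero1l was matched as Ero1a). In the first window listed for each gene, the motif was present for 26 of the 32 members, 81.25%, against 10431 of 27025 genes, 38.6%. Over every window of genes with several annotated starts, it was present for 30 of the 32, 93.75%, against 41.5% of all genes. The motif contains CpG, and the members' windows held a median of 16.5 CpG and 63.4% G or C, against 6 and 52% over all genes. Over every window, the motif was present for all 4 members that were higher in transgenic tissue at D80, for 9 of the 10 lower ones with a window, and for 16 of the 17 that were not called, whereas the first windows alone gave 4, 6 and 15. The windows of the 3 members with the largest called rise at D80 and of the 3 with the largest called fall that have a window are printed because they show that the same letters stand before genes that moved in opposite directions. They are Hif1a (chr12:73907617-73907866, plus strand), P4ha2 (chr11:54100674-54100923, plus strand) and P4ha1 (chr10:59323046-59323295, plus strand), which rose, and Bnip3 (chr7:138909507-138909756, minus strand), Higd1a (chr9:121857797-121858046, minus strand) and Ldha (chr7:46845554-46845803, plus strand), which fell. Each runs 5′ to 3′ on the gene's strand, with the motif in capitals on either strand.
Hif1a: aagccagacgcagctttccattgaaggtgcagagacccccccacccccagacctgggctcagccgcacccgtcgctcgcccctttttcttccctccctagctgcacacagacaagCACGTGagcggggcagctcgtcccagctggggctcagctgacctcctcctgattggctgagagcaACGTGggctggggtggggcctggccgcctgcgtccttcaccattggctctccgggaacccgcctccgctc
P4ha2: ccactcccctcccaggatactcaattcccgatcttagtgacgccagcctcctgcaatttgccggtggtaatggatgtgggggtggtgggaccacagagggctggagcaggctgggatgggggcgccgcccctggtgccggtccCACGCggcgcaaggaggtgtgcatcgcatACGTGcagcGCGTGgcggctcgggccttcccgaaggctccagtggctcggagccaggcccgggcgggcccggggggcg
P4ha1: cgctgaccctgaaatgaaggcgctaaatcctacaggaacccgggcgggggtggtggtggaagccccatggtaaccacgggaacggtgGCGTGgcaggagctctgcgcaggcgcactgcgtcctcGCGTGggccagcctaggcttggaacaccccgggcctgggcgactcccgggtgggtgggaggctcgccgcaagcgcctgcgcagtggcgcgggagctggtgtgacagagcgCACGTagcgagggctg
Bnip3: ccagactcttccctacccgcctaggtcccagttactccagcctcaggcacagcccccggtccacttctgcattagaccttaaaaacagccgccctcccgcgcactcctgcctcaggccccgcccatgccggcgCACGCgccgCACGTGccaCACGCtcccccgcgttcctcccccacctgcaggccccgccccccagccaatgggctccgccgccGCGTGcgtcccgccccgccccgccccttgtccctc
Higd1a: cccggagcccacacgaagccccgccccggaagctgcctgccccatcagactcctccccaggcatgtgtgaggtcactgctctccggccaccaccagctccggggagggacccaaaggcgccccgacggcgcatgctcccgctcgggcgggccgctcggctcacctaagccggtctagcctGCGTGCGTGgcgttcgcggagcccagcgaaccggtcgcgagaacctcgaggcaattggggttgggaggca
Ldha: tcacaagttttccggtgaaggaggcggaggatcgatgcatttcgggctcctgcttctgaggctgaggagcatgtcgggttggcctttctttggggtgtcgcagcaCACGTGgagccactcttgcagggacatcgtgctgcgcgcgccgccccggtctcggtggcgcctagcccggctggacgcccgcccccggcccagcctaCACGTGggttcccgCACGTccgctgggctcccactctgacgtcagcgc
Hif1a, P4ha2 and P4ha1 held 3 matches each, Bnip3 and Ldha 5 each and Higd1a 2. A match describes letters and does not show binding.

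Libraries held 20121600 to 27633715 counts. Levels are CPM, the reads of a gene as a rate per library size, after correction of the library size by edgeR's TMM factors. Fold changes and adjusted p-values come from edgeR's quasi-likelihood test with Benjamini-Hochberg adjustment over 15369 genes, and a gene is called higher or lower where the adjusted p is under 0.05. The tissue's makeup moved with the transgene at D80: summed smooth muscle markers ranged from 2695 to 2837 CPM in D80SV against 11069 to 18002 in D80WT, with 10 of 10 lower, surface mucous markers from 17466 to 31716 against 56829 to 146852, with 6 of 6 lower, and neuroendocrine markers from 24837 to 37240 against 496 to 536, with 8 of 8 higher. The 6 neutrophil, 6 macrophage and 6 proliferation markers were also all higher. Makeup already differed at D60, with neuroendocrine markers at 4295 to 5875 CPM in D60SV against 294 to 424 in D60WT, 8 of 8 higher. Smooth muscle markers ranged from 6893 to 13964 CPM in D60SV against 15610 to 20390 in D60WT, with 0 of 10 called. No surface mucous, neutrophil, macrophage or proliferation marker was called at D60. No marker of these lists had 0 counts in every library. In bulk tissue, fewer cells of a type and less RNA per cell cannot be told apart. By Xist and Y-linked genes the D60WT libraries were male, the D60SV and D80WT libraries female, and D80SV 1 male and 2 female, hence from more than 1 animal, so genotype and sex cannot be told apart at D60. Among the D80WT libraries, replicate 3 held the most duodenal enterocyte transcripts, 10625 CPM against 307 in replicate 1, and it was the highest of its group for 21 of the 32 members (65.6%, against 35.0% of all genes), whereas replicate 1 was the lowest for 25 (78.1%, against 34.9%).

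At D80 the transgenic tissue had lower RNA of glucose entry, of several glycolytic steps and of lactate formation, and higher RNA of Hif1a itself. Of 32 members tested, 11 were lower, 34.4%, against a background of 22% of all genes tested, and 4 were higher, 12.5%, against 19.4%. The lower genes were Slc2a1, Hk1, Gpi1, Aldoa, Ldha, Pdk1, Egln1, Bnip3, Ndrg1, Mxi1 and Higd1a, and the higher ones Hif1a, P4ha1, P4ha2 and Pfkm. The median log2 fold change of the members was -0.44, against -0.07 over all genes. The groups did not overlap for 4 members that were higher, 12.5% against 24.4% of all genes, and 10 that were lower, 31.25% against 26.1%. These counts depended on single libraries and on scaling. The lower count was 4 without D80SV replicate 3, 21 without D80WT replicate 1 and 5 without D80WT replicate 3 and D80SV replicate 1, the libraries richest in duodenal and pancreatic transcripts. The share of all genes called in these fits is not given here, so the counts do not show a change particular to the members.

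**Figure D1:**
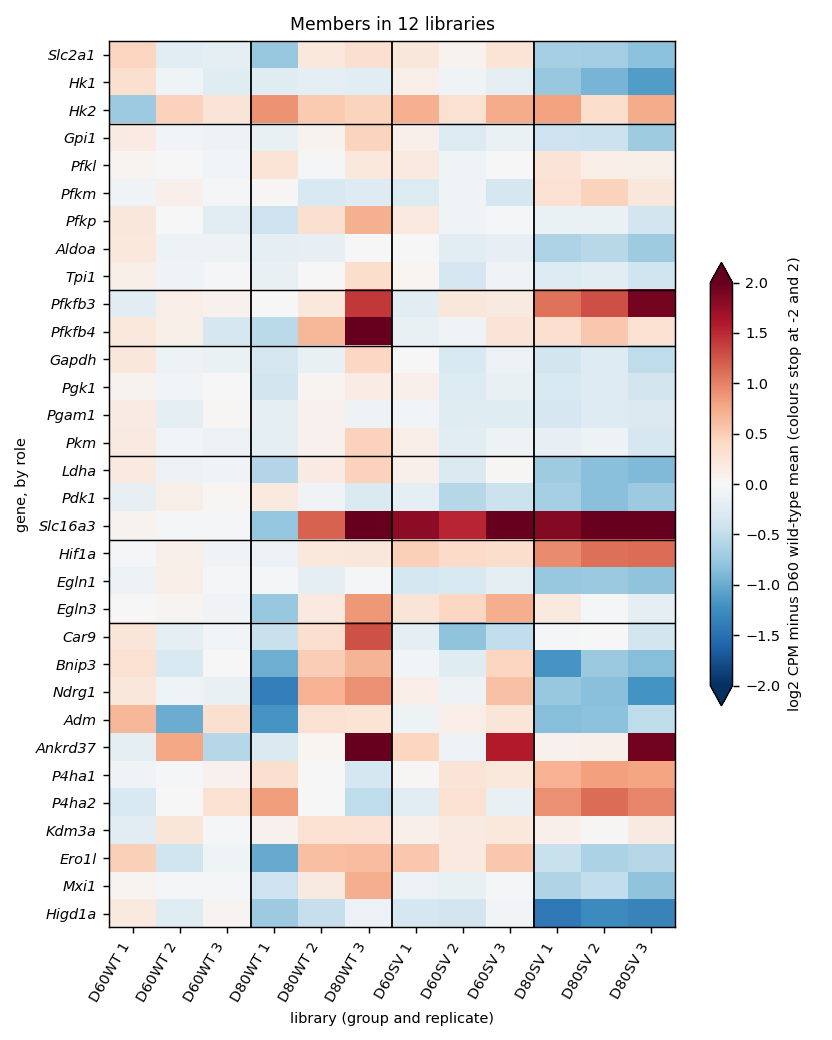
Scaled expression of the 32 tested members (rows, ordered by role) in each of the 12 libraries (columns), as log2 CPM minus the mean of the D60 wild-type libraries. The D80SV columns lie farthest above the D60 wild-type mean for Slc16a3, Pfkfb3, Hif1a and P4ha2 and farthest below it for Higd1a, Hk1, Ndrg1 and Bnip3, and the 3 D80WT columns span a wider range than the 3 D80SV columns for 31 of the 32 members. Ranges were not counted over all genes, so this is not shown to be particular to the members.

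The direction at D80 was partly set by how library sizes were scaled. With no composition factor, the median of all genes moved by 0.42 on the log2 scale, 83.6% of all called genes were higher in place of 46.8%, and the members' calls became 6 higher and 1 lower. Over all genes tested, that fit called 33.2% higher and 6.51% lower. The 6 were the 4 above with Pfkl and Pfkfb3, and the 1 was Higd1a. With upper-quartile factors, the median moved by 0.16, 63.0% of called genes were higher, and the members' calls were 5 higher and 9 lower. Over all genes tested, 23.2% were then called higher and 13.6% lower. A change of factor moves all genes by nearly the same amount, so it leaves the members' place among all genes nearly fixed. After TMM scaling, 24 of the 32 members lay below the median fold change of all genes at D80, and the median of the members minus that of all genes was -0.36 on the log2 scale. The 13 glycolytic enzymes among the tested members (the hexokinases to Pkm, with Ldha) made up 0.487% to 0.519% of raw counts in D80SV and 0.478% to 0.595% in D80WT, ranges that overlap, whereas their summed CPM after TMM was 3747 to 4215 against 4694 to 6972.

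**Figure D2:**
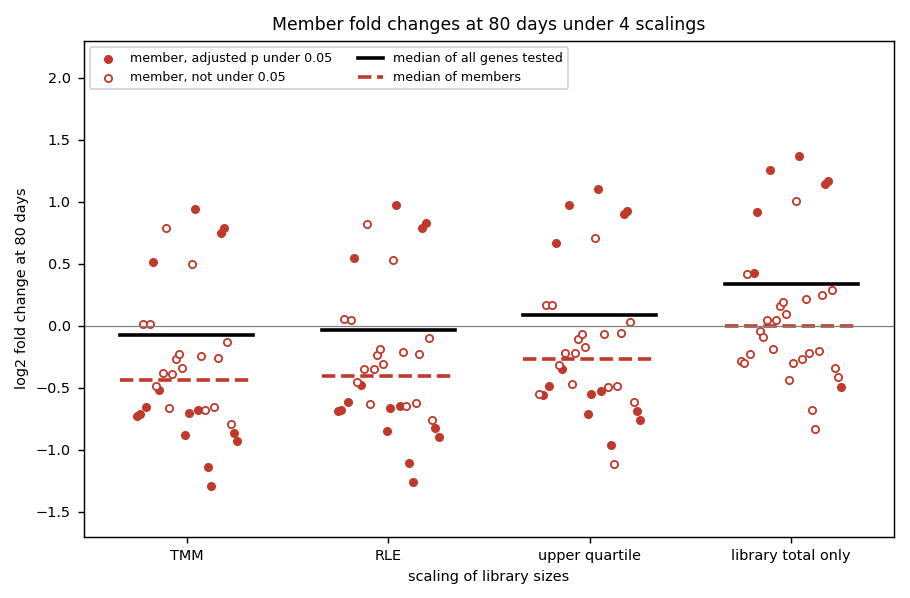
Log2 fold changes of the 32 tested members at D80 (vertical axis, points; filled where called) under 4 scalings of library size (horizontal axis), with the median of all genes and of the members as lines. Both medians shift upward together from the TMM column to the column with no composition factor, since a change of factor moves all genes by nearly the same amount.

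Glucose entry is served by Slc2a1 (GLUT1), the widely expressed transporter, and by hexokinases 1 and 2. Hk1 (chr10:62268855-62379908, minus strand, GRCm38) measured 263, 274 and 270.4 CPM in D80WT and 184, 164 and 144 in D80SV. All 3 transgenic libraries lay below all 3 wild-type ones. The level fell 1.64-fold (log2 fold change -0.71, SE 0.16, adjusted p = 0.0041). Slc2a1 (chr4:119108711-119137983, plus strand) measured 61.0, 119 and 129 CPM in D80WT and 64.9, 63.6 and 58.6 in D80SV. The groups overlapped, since D80WT replicate 1 lay among the transgenic values. The fit called it lower (log2 fold change -0.72, SE 0.25, adjusted p = 0.035). Its adjusted p was 0.063 to 0.13 without any 1 of 6 libraries, D80WT replicate 2 or 3, D60SV replicate 2 or any D80SV replicate. Of 24 alternatives run, 14 lost the call, among them upper-quartile factors, no composition factor and limma-voom with all libraries. Hk2, the insulin-responsive and often tumour-induced hexokinase, was not called, with 49.0, 37.7 and 35.6 CPM in D80WT and 45.8, 33.5 and 44.1 in D80SV.

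The preparatory steps carry glucose 6-phosphate to triose phosphates. Gpi1, glucose 6-phosphate isomerase (chr7:34201330-34230336, minus strand), measured 502, 582 and 757 CPM in D80WT and 417, 412 and 342 in D80SV, and fell 1.57-fold (log2 fold change -0.65, SE 0.18, adjusted p = 0.012). Aldoa, the aldolase of muscle and most tissues (chr7:126795234-126800751, minus strand), measured 1053, 1069 and 1204 CPM in D80WT and 779.6, 817 and 733 in D80SV, and fell 1.43-fold (log2 fold change -0.51, SE 0.15, adjusted p = 0.016). Both groups of values were separate for each gene. Without D80SV replicate 3 neither passed, with adjusted p-values of 0.074 for Gpi1 and 0.089 for Aldoa. Both calls were also lost with no composition factor and with only the 2 groups compared. Tpi1, triose phosphate isomerase, was not called (log2 fold change -0.38, SE 0.15, adjusted p = 0.066) although its groups did not overlap. It was called lower without D80WT replicate 1, at an adjusted p of 0.022, and with no composition factor its sign turned (log2 fold change 0.047).

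Of the 3 phosphofructokinase subunits, the muscle form Pfkm was the one that rose. Pfkm (chr15:98092589-98132451, plus strand) measured 40.9, 32.6 and 33.9 CPM in D80WT and 50.1, 55.9 and 47.2 in D80SV. All D80SV values exceeded all D80WT values. The rise was 1.43-fold (log2 fold change 0.51, SE 0.12, adjusted p = 0.0068) while the summed smooth muscle markers were lower, and the part of tissue makeup in it was not tested. Pfkl, the liver form, measured 134, 109.5 and 129 CPM in D80WT and 134, 122 and 121 in D80SV. Its fold change was near 0 on the log2 scale (log2 fold change 0.01, SE 0.11, adjusted p = 0.94). Pfkp, the platelet form, ranged more widely in wild-type tissue, 103, 171 and 225 CPM against 125, 125 and 106, and was not called (log2 fold change -0.49, SE 0.23, adjusted p = 0.11). Without D80WT replicate 1 it was called lower, at an adjusted p of 0.0038. Part of the Pfkm exons, 10.2% of bases, also belongs to another annotated gene, and the strand setting of the counting is not given in the sources used here.

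Pfkfb3 and Pfkfb4 make and remove fructose 2,6-bisphosphate, the activator of phosphofructokinase, and Pfkfb3 is the form with the strongest kinase activity. Pfkfb3 measured 6.46, 7.54 and 17.2 CPM in D80WT and 13.7, 15.9 and 24.4 in D80SV. D80WT replicate 3 lay within the transgenic range. The difference was not called (log2 fold change 0.79, SE 0.34, adjusted p = 0.084), and without D80WT replicate 3 it was, with a log2 fold change of 1.36 and an adjusted p of 0.0032. In all, 7 of 24 alternatives called it higher, among them upper-quartile factors, no composition factor, DESeq2 and limma-voom with all libraries. Pfkfb4 was not called, with 12.2, 28.1 and 70.7 CPM in D80WT, a 5.78-fold spread within the group, and 22.4, 25.7 and 22.0 in D80SV. Without D80WT replicate 1 it was called lower, at an adjusted p of 0.012.

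The payoff steps showed no called change. Gapdh, Pgk1, Pgam1 and Pkm, which carry triose phosphate to pyruvate, had log2 fold changes at D80 of -0.39, -0.27, -0.23 and -0.34, with adjusted p-values of 0.14, 0.15, 0.13 and 0.16. At an unadjusted p under 0.05 none of the 4 passed either, against 7701 of the 15369 genes tested. Without D80WT replicate 1, Gapdh, Pgk1 and Pkm were called lower, with adjusted p-values of 0.037, 0.017 and 0.042. That library was the lowest of its group for 25 of the 32 members, and no other omission is given for these genes. With no composition factor the signs of all 4 turned, to 0.049 for Gapdh, 0.160 for Pgk1, 0.192 for Pgam1 and 0.091 for Pkm, and none was called. Gapdh, often used as a reference gene, measured 538, 614 and 905 CPM in D80WT and 525, 568 and 478 in D80SV. These genes have many processed copies, and their counts are uncertain to that extent. Of all 50-base words in the transcripts, 82.5% of those of Gapdh, 67.96% of Pgk1, 41.5% of Pgam1 and 34.4% of Pkm also occur in other annotated genes, and 13.5% to 25.3% of those of Aldoa, Ldha and Gpi1.

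Eno1 could not be followed. Its 0 to 3 counts per library stand beside 72.2% of 50-base words that recur in other genes, most of them in the near-identical gene Eno1b, listed in the table as Gm5506 with 0 to 2 counts. Nothing about the level of enolase 1 can be read from these values.

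Pyruvate is turned to lactate by Ldha, exported as lactate by Slc16a3 (MCT4), and kept from the mitochondrial pyruvate dehydrogenase by the kinase Pdk1. Ldha (chr7:46841475-46855627, plus strand), whose window is printed above, measured 741, 1243 and 1522 CPM in D80WT and 677, 619 and 604 in D80SV. The groups did not overlap, and the level fell 1.85-fold (log2 fold change -0.88, SE 0.23, adjusted p = 0.011), with an adjusted p of 0.053 without D80SV replicate 3. Pdk1 (chr2:71873224-71903858, plus strand) measured 76.4, 63.5 and 54.2 CPM in D80WT and 41.7, 37.2 and 40.3 in D80SV. All transgenic libraries were lower, and the level fell 1.63-fold (log2 fold change -0.70, SE 0.14, adjusted p = 0.0028). Slc16a3 was not called (log2 fold change 0.50, SE 0.64, adjusted p = 0.56), and D80WT itself spanned 2.93, 11.3 and 37.8 CPM, against 17.8, 27.0 and 28.9 in D80SV. Without D80WT replicate 3 it was called higher, with a log2 fold change of 1.78 and an adjusted p of 0.020, and without D80WT replicate 1 the log2 fold change was -0.0047.

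Hif1a and Egln1, the oxygen-regulated factor and the main hydroxylase that marks it, moved in opposite directions. Hif1a (chr12:73901375-73947530, plus strand) measured 49.3, 61.6 and 62.5 CPM in D80WT and 103, 114 and 116 in D80SV. Every D80SV library exceeded every D80WT library, and the rise was 1.92-fold (log2 fold change 0.94, SE 0.11, adjusted p = 7.8e-05). Egln1 (chr8:124908587-124949324, minus strand), which encodes prolyl hydroxylase PHD2, measured 88.1, 80.03 and 88.0 CPM in D80WT and 53.6, 54.4 and 51.7 in D80SV. It fell 1.60-fold (log2 fold change -0.68, SE 0.10, adjusted p = 0.00027), and this call was lost with no composition factor, at an adjusted p of 0.13. Egln3, a hydroxylase that HIF itself induces, was not called, with 33.7, 65.0 and 104 CPM in D80WT and 65.2, 56.1 and 50.2 in D80SV. Without D80WT replicate 1 it was called lower, at an adjusted p of 0.033, and with no composition factor its sign turned (log2 fold change 0.22).

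**Figure D3:**
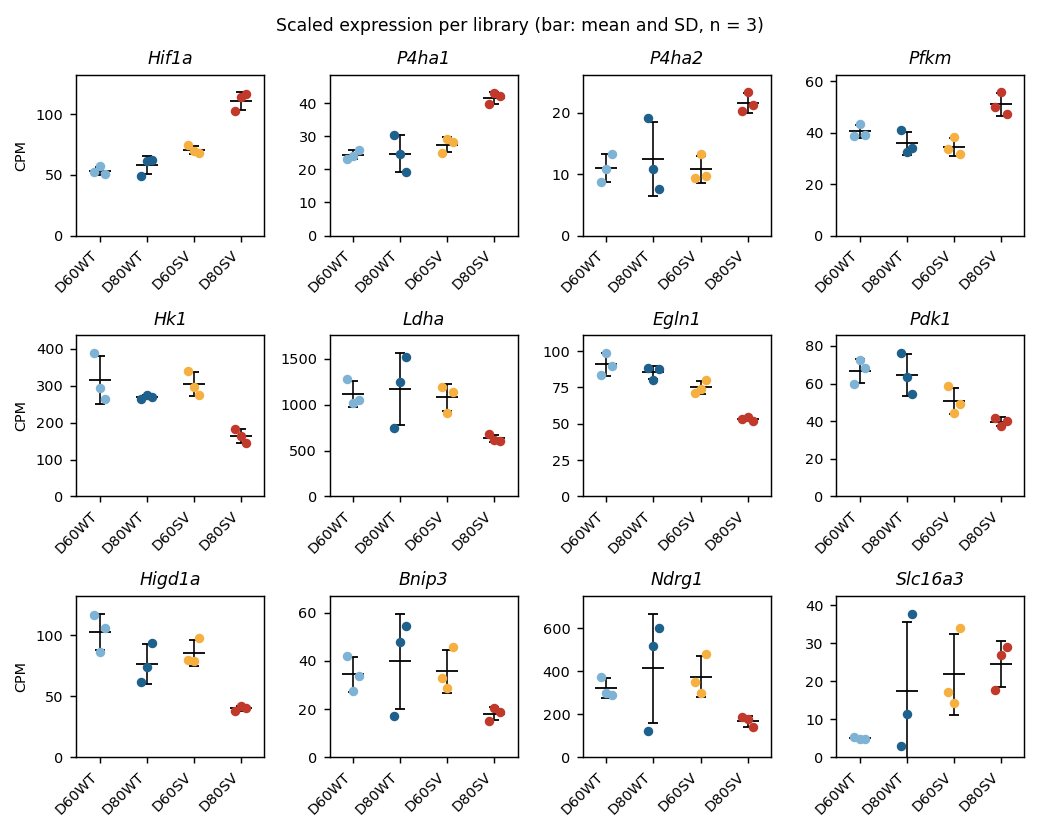
Scaled expression in CPM (vertical axes, from 0) in each library of the 4 groups (points), with the group mean and SD (n = 3). Hif1a lies at 103 to 116 CPM in D80SV, above all other libraries, and the 3 points of D80WT are far apart for Ldha and Ndrg1.

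Among the other hypoxia-inducible members, 4 of 11 fell, 36.4% against the background of 22%, 2 rose, 18.2% against 19.4%, and 5 were not called. Those that fell include Bnip3, a mitophagy receptor, and Higd1a, a small protein of the inner mitochondrial membrane. Higd1a (chr9:121848563-121858362, minus strand) measured 61.8, 74.4 and 94.0 CPM in D80WT and 37.9, 42.1 and 40.7 in D80SV. The groups did not overlap, and Higd1a fell 1.91-fold (log2 fold change -0.93, SE 0.16, adjusted p = 0.0011), a call that held under all 24 alternatives run. However, 36.6% of its 50-base words also occur in other annotated genes, and 29.0% in an antisense gene among them. Mxi1, a repressor that opposes MYC (chr19:53310518-53375810, plus strand), measured 44.2, 66.4 and 97.0 CPM in D80WT and 38.8, 41.9 and 33.7 in D80SV. It fell 1.82-fold (log2 fold change -0.86, SE 0.22, adjusted p = 0.0083), with an adjusted p of 0.051 without D80SV replicate 3.

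Bnip3 and Ndrg1 had the largest fitted falls and also a wide spread in wild-type tissue, up to 4.88-fold within D80WT (Ndrg1). Bnip3 (chr7:138890836-138909519, minus strand) measured 17.3, 47.7 and 54.6 CPM in D80WT and 15.0, 20.4 and 18.8 in D80SV (log2 fold change -1.14, SE 0.35, adjusted p = 0.022). Ndrg1, a stress-induced gene of differentiated epithelium (chr15:66929318-66969640, minus strand), measured 123, 516 and 602 CPM in D80WT and 189, 178 and 139.6 in D80SV (log2 fold change -1.29, SE 0.43, adjusted p = 0.032). D80WT replicate 1 lay within the transgenic range for Bnip3 and below it for Ndrg1, and the other two wild-type libraries lay far above it in both. The adjusted p was 0.068 to 0.084 for Bnip3 without any 1 of D80WT replicates 2 and 3 and D80SV replicates 1 and 3, and 0.057 to 0.12 for Ndrg1 without any 1 of D80WT replicates 2 and 3 and the 3 D80SV libraries. Of the 24 alternatives, 10 lost the call for Bnip3 and 13 for Ndrg1, with limma-voom and no composition factor among them for both. Of the 50-base words of Bnip3, 62.5% also occur in other annotated genes.

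The members that rose were P4ha1 and P4ha2, catalytic subunits of the collagen prolyl 4-hydroxylase, an enzyme of collagen folding that is distinct from the Egln hydroxylases. P4ha1 (chr10:59323296-59373304, plus strand) measured 30.5, 24.6 and 19.1 CPM in D80WT and 39.6, 43.1 and 42.1 in D80SV. The groups did not overlap, and P4ha1 rose 1.68-fold (log2 fold change 0.75, SE 0.15, adjusted p = 0.0026). P4ha2 (chr11:54100095-54131665, plus strand) measured 19.2, 10.8 and 7.58 CPM in D80WT and 20.3, 23.5 and 21.2 in D80SV. It rose 1.73-fold and passed narrowly (log2 fold change 0.79, SE 0.29, adjusted p = 0.048). Its adjusted p was 0.055 to 0.14 without any 1 of 9 libraries (all but D60WT replicate 1, D80WT replicate 1 and D60SV replicate 2). In all, 13 of the 24 alternatives lost the call, among them only the 2 groups compared and sex as a covariate.

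The remaining hypoxia-inducible members were not called at D80 with all libraries in the fit. Without D80WT replicate 1, Car9, Adm and Ero1l were called lower. Car9, the surface carbonic anhydrase widely used as a hypoxia marker, measured 56.8, 96.6 and 187 CPM in D80WT and 76.1, 77.0 and 59.6 in D80SV (log2 fold change -0.68, SE 0.34, adjusted p = 0.13), with an adjusted p of 0.0083 without that library. Car9 is also a normal product of gastric epithelium, and it was present in wild-type tissue at 91.2, 67.7 and 74.8 CPM at D60. Adm, the vasodilator peptide adrenomedullin, measured 2.60, 7.28 and 7.06 CPM in D80WT and 3.24, 3.32 and 4.15 in D80SV, with an adjusted p of 0.039 without it. Ero1l, an oxidase of protein folding in the endoplasmic reticulum, measured 48.6, 149 and 150.0 CPM in D80WT and 71.8, 63.0 and 66.2 in D80SV (log2 fold change -0.79, SE 0.35, adjusted p = 0.089), with an adjusted p of 0.0010 without it. Kdm3a, a histone demethylase, measured 27.1, 31.6 and 31.5 CPM in D80WT and 27.4, 26.0 and 28.9 in D80SV, the narrowest ranges of these 5 genes. Ankrd37, a small ankyrin repeat protein, was low throughout, 0.666 to 5.29 CPM over the 12 libraries.

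At D60 no member was called in either direction, against a background of 3.66% of all genes higher and 0.241% lower. An unadjusted p under 0.05 was found for 4 of the 32 members, against 2255 of the 15369 genes tested. DESeq2 called 1 higher, Hif1a, and 1 lower, Egln1, and limma-voom called none. Hif1a measured 52.5, 57.2 and 50.8 CPM in D60WT and 74.4, 69.7 and 67.8 in D60SV. The transgenic libraries were all higher (log2 fold change 0.40, SE 0.11, adjusted p = 0.081). Hif1a was called without D80WT replicate 1, at an adjusted p of 0.030. Slc16a3 measured 5.25, 4.85 and 4.90 CPM in D60WT and 17.2, 14.3 and 33.9 in D60SV. The wild-type libraries were tightly grouped and the transgenic ones all higher, but the gene did not pass (log2 fold change 2.13, SE 0.68, adjusted p = 0.14). Without D80WT replicate 1 or without D80WT replicate 3 the adjusted p was 0.015 to 0.021. The part of tissue makeup in the D60 differences was not tested.

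The D60 groups also did not overlap for 4 further members, of which Egln3 was higher and Pfkm, Pdk1 and Egln1 were lower, so that 3 of 32 members, 9.38%, were separate and higher, against 12.2% of all genes, and 3 separate and lower, against 7.84%. Egln1 measured 83.9, 99.0 and 89.6 CPM in D60WT and 71.4, 73.8 and 80.2 in D60SV (log2 fold change -0.27, SE 0.10, adjusted p = 0.18). Pdk1 measured 59.5, 72.3 and 68.2 CPM in D60WT and 58.4, 44.5 and 49.4 in D60SV (log2 fold change -0.39, SE 0.14, adjusted p = 0.21). Both are the genes whose fall was called at D80, and neither passed at D60. With sex as a covariate, the D60 log2 fold changes were 0.23 for Hif1a, 1.47 for Slc16a3 and -0.26 for Egln1, with edgeR adjusted p-values that round to 1 for each. Only D80SV held both sexes, so the sex term was set by its male library, replicate 1, against replicates 2 and 3. That library also held the most pancreatic acinar transcripts, 3786 CPM. Every result given with sex as a covariate therefore cannot tell sex apart from other traits of that library.

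**Figure D4:**
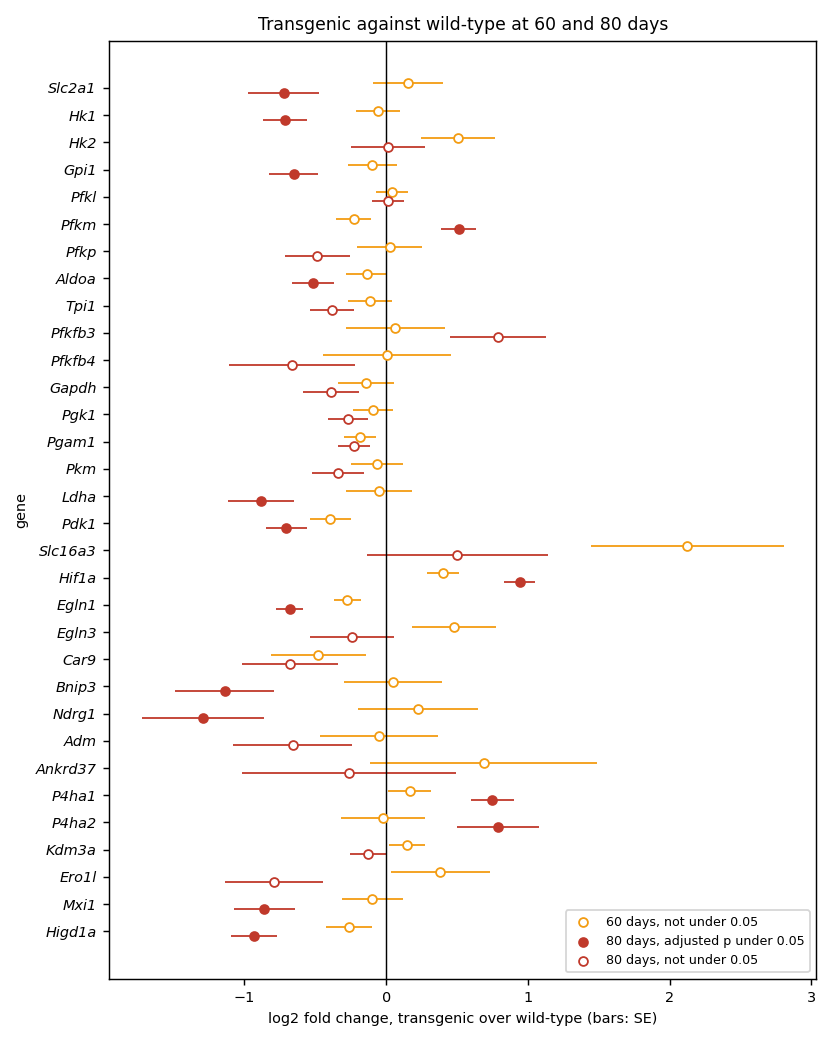
Log2 fold change of transgenic over wild-type tissue (horizontal axis, bars are SE) for the 32 tested members (vertical axis) at D60 and D80, filled where the adjusted p is under 0.05. All D60 points are open, and the filled D80 points run from -1.29 for Ndrg1 to 0.94 for Hif1a.

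Between D60 and D80 in wild-type mice no member was called, and no gene was called by edgeR among the 15369 tested, a background of 0% in each direction, while 1925 genes and 3 members had an unadjusted p under 0.05. The 3 were Pfkfb4, Slc16a3 and Higd1a. The count of 0 rests on 1 library, since edgeR called 396 genes without D80WT replicate 1, and 0 to 8 without any other. DESeq2 called 254 genes and limma-voom 0. Sex differs fully between these wild-type ages and cannot be told apart from age.

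In transgenic mice 13 of 32 members changed between the ages. The 5 higher at D80 were Pfkm, Pfkfb3, Hif1a, P4ha1 and P4ha2, 15.6% against a background of 17.7%, and the 8 lower were Slc2a1, Hk1, Aldoa, Ldha, Egln1, Bnip3, Ero1l and Higd1a, 25% against 18%. These values share the D80SV libraries with the comparison of genotypes at D80, so the 2 are not independent. Pfkfb3 rose 2.63-fold, from 5.57, 7.63 and 7.32 CPM to 13.7, 15.9 and 24.4 (log2 fold change 1.39, SE 0.35, adjusted p = 0.0099). The 2 ages did not overlap. P4ha2 rose 2.0-fold, from 9.39, 13.3 and 9.75 CPM to 20.3, 23.5 and 21.2 (log2 fold change 1.0, SE 0.29, adjusted p = 0.021), with an adjusted p of 0.065 to 0.075 without any 1 of D60SV replicates 1 and 3 and D80SV replicate 2. Hif1a rose 1.57-fold (log2 fold change 0.65, SE 0.11, adjusted p = 0.0015), Pfkm 1.48-fold (log2 fold change 0.56, SE 0.12, adjusted p = 0.0054) and P4ha1 1.52-fold (log2 fold change 0.60, SE 0.15, adjusted p = 0.010).

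Among the genes that fell with age in transgenic mice, Higd1a had the smallest adjusted p, with 79.7, 79.3 and 98.1 CPM in D60SV and 37.9, 42.1 and 40.7 in D80SV (log2 fold change -1.09, SE 0.16, adjusted p = 0.00076). Hk1 measured 340.2, 297 and 275 CPM in D60SV and fell 1.85-fold (log2 fold change -0.89, SE 0.16, adjusted p = 0.0018), and Slc2a1, at 121, 108 and 124 CPM in D60SV, fell 1.89-fold (log2 fold change -0.92, SE 0.25, adjusted p = 0.015). In the transgenic tissue Slc2a1 was thus separate between ages, unlike between genotypes at D80, and its adjusted p was 0.060 without D80SV replicate 3. Egln1 fell 1.41-fold (log2 fold change -0.50, SE 0.10, adjusted p = 0.0029), Aldoa 1.41-fold (log2 fold change -0.50, SE 0.15, adjusted p = 0.021) and Ldha 1.70-fold (log2 fold change -0.77, SE 0.23, adjusted p = 0.025). Bnip3 and Ero1l passed narrowly, at adjusted p-values of 0.046 and 0.047, and leaving out any 1 of 10 libraries for Bnip3 or any 1 of 8 for Ero1l ended the call, with adjusted p-values up to 0.16 and 0.13. Aldoa lost its call without any 1 of 5 libraries (D60SV replicates 1 and 3 and every D80SV replicate), with adjusted p-values of 0.051 to 0.094, and Ldha without any 1 of 4 (D60SV replicates 1 and 3, D80SV replicates 2 and 3), with 0.073 to 0.090.

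The effect of the transgene differed between the ages for 1 member by the interaction test, Pfkm, against a background of 2.77% of genes in that direction and 2.23% in the other. Pfkm measured 38.7, 43.5 and 39.3 CPM in D60WT and 33.6, 38.5 and 31.6 in D60SV, with the transgenic libraries all lower, and the D80 values given above were all higher. The interaction was 0.74 on the log2 scale (SE 0.17, adjusted p = 0.036). It did not pass with sex as a covariate, at an adjusted p of 0.24, nor without any 1 of 8 libraries (all but D60WT replicate 1, D80WT replicate 1, D60SV replicate 2 and D80SV replicate 1), at 0.050 to 0.11. For the other 14 members called at D80, the difference between the ages was not called. In all 13 of the 32 members had an unadjusted interaction p under 0.05, against 3567 of the 15369 genes tested. For Hif1a the interaction was 0.54 (SE 0.16, adjusted p = 0.070).

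By counted reads per kilobase of all annotated exon bases, Aldoa and Ldha had the highest levels of the glycolytic members in all groups. This order is limited by unequal sharing of reads with other genes, 13.5% and 16.7% of 50-base words for Aldoa and Ldha against 82.5% for Gapdh and 72.2% for Eno1. In D60WT, mean CPM per kilobase of exon was 415 for Aldoa, 337 for Ldha, 166 for Gapdh, 166 for Tpi1, 162 for Pkm and 86.6 for Gpi1. In D80SV the same genes stood at 267, 191, 127, 135, 141 and 60.5. By this length, Tpi1, Gapdh and Pkm lay within the spread of each other in both groups. The longest coding transcript of Gapdh has 1420 bases against 4133 exon bases, and that of Tpi1 1607 against 2753. For Pkm the lengths are 2432 against 5001 and for Ldha 1815 against 3310. The order of these genes thus depends on the length used. At the low end Slc16a3 was at 0.940 and Pfkfb3 at 0.863 CPM per kilobase in D60WT.

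Ratios between isoenzymes of 1 step do not depend on library scaling. The log2 ratio of Hk2 to Hk1 was -2.74 ± 0.27 (SD, n = 3) in D80WT and -2.001 ± 0.29 in D80SV. That of Pfkm to Pfkl was -1.80 ± 0.12 and -1.30 ± 0.15, and that of Pfkfb3 to Pfkfb4 was -1.62 ± 0.61 and -0.42 ± 0.49. None of these 3 pairs of groups overlapped, and each gave an exact two-sided permutation p of 0.1, the smallest that 3 libraries against 3 allow, and an adjusted p of 0.22 over 20 tests. The ratios of Pfkp to Pfkl and of Ldha to Ldhb overlapped at D80, with exact permutation p-values of 0.4 and 1. The ratio of Pfkm to Pfkl was lower in D80WT than in D60WT (-1.46 ± 0.11) and again separate, so that the wild-type ages differed in it too. The ratio of Hk2 to Hk1 was also higher at D80 than at D60 in both genotypes, without overlap.

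**Figure D5:**
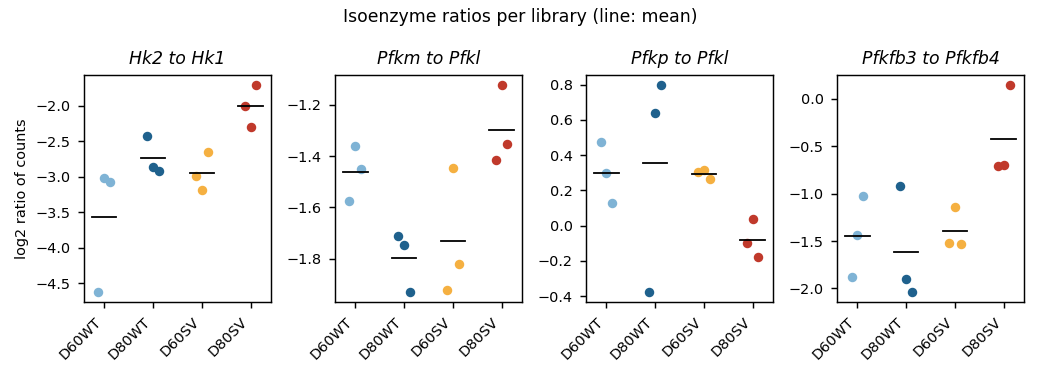
Log2 ratio of counts of isoenzyme pairs (vertical axis) in each library of the 4 groups (points; lines are means). The D80SV points lie above all D80WT points for Hk2 to Hk1, Pfkm to Pfkl and Pfkfb3 to Pfkfb4.

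As shares of their step, per length, Pfkm made up 35.6% ± 2.02 (SD, n = 3) of phosphofructokinase RNA in D80SV and 25.9% ± 4.37 in D80WT, and Pfkp 20.6% ± 0.714 and 29.4% ± 8.97. Hk1 made up 55.3% ± 1.81 of the summed RNA of Hk1, Hk2, Hk3 and Hkdc1 in D80SV and 67.5% ± 10.998 in D80WT, and the groups overlapped. Length here is all annotated exon bases of a gene, 13401 for Pfkp, 6675 for Pfkl, 3340 for Pfkm and 8532 for Hk1. Their longest coding transcripts measure 4145, 3730, 2879 and 4278 bases. The sizes of these shares, and the order of the subunits within a group, thus depend on the length used.

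The other genes of these pathways were followed by 96 listed genes, of which 91 were tested, in 6 lists that hold no member. At D60, 2 were higher, Arnt2 among them, 2.20% against the background of 3.66%, and 1 was lower, Ak4, 1.10% against 0.241%. Arnt2, a neuronal partner of HIF-family proteins, measured 1.42, 1.37 and 0.619 CPM in D60WT and 4.11, 7.50 and 5.62 in D60SV (log2 fold change 2.35, SE 0.40, adjusted p = 0.0050). The genotypes did not overlap, and Arnt2 did not pass with sex as a covariate, at an adjusted p of 0.57. Ak4, a mitochondrial adenylate kinase, was lower (log2 fold change -1.01, SE 0.23, adjusted p = 0.033), and its adjusted p was 0.051 to 0.15 without any 1 of 6 libraries, namely D60WT replicates 2 and 3, the 3 D60SV libraries and D80SV replicate 2.

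At D80, 13 of the 91 were higher, 14.3% against the background of 19.4%, and 36 lower, 39.6% against 22%. Among 20 other glycolytic isoenzymes and transporters 4 were higher and 6 lower. Eno2, the neuronal and neuroendocrine enolase, rose from 2.89, 3.93 and 2.95 CPM in D80WT to 23.6, 46.0 and 34.2 in D80SV (log2 fold change 3.41, SE 0.31, adjusted p = 1.0e-05). Slc2a4 (GLUT4), the insulin-responsive transporter of muscle and fat, measured 50.6, 32.9998 and 41.3 CPM in D80WT and 10.5, 13.6 and 14.4 in D80SV, and Slc16a1 (MCT1), a lactate carrier, 109, 147 and 115 and 67.4, 49.0 and 53.6. Both fell, without overlap, while smooth muscle markers were lower. These 3 calls held under all 24 alternatives run.

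Genes for the entry of pyruvate into mitochondria were lower in 9 of 12, 75% against the background of 22%, and higher in none, against 19.4%. Pdha1, a subunit of pyruvate dehydrogenase, measured 389.9, 389 and 366 CPM in D80WT and 238, 199 and 214 in D80SV (log2 fold change -0.81, SE 0.12, adjusted p = 0.00037). Pdk2 (log2 fold change -0.96, SE 0.14, adjusted p = 0.00031) and Pdk4 (log2 fold change -2.40, SE 0.46, adjusted p = 0.0020), kinases that switch that enzyme off, and Mpc1 (log2 fold change -0.74, SE 0.15, adjusted p = 0.0032), a subunit of the mitochondrial pyruvate carrier, also fell. The list thus held the enzyme and its inhibitors together. With no composition factor 3 of the 12 were lower, against 6.51% of all genes in that fit.

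Of 8 genes of the pentose phosphate pathway, which makes NADPH and ribose, 6 were lower at D80, 75% against the background of 22%, among them G6pdx, the first enzyme, with 175, 216 and 198 CPM in D80WT and 120.4, 93.4 and 91.0 in D80SV (log2 fold change -0.95, SE 0.19, adjusted p = 0.0026), and transketolase, Tkt (log2 fold change -0.85, SE 0.20, adjusted p = 0.0056). With no composition factor 2 were lower and 1 higher, against 6.51% and 33.2% of all genes in that fit. Of 8 genes of gluconeogenesis 6 were lower, also 75% against 22%. Fbp2, the muscle fructose bisphosphatase, had the smallest adjusted p (log2 fold change -0.93, SE 0.23, adjusted p = 0.0072). Larger fitted falls were those of G6pc (log2 fold change -4.51, SE 1.25, adjusted p = 0.013) and Pck1 (log2 fold change -2.15, SE 0.70, adjusted p = 0.028). G6pc, Pck1 and Pcx (log2 fold change -0.90, SE 0.25, adjusted p = 0.014) each lost the call without D80WT replicate 3, the library richest in duodenal transcripts, and without D80SV replicate 3, and Pck1 also without D80SV replicate 2. Without D80WT replicate 3 the log2 fold change was -3.26 for G6pc (adjusted p = 0.052), -0.55 for Pck1 (adjusted p = 0.30) and -0.58 for Pcx (adjusted p = 0.058). Without D80SV replicate 3 it was -4.29, -1.89 and -0.71, with adjusted p-values of 0.057, 0.11 and 0.080.

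Of 14 other genes of oxygen sensing, 1 was higher at D80, 7.14% against the background of 19.4%, and 4 lower, 28.6% against 22%. Arnt2 rose from 1.99, 1.41 and 3.47 CPM in D80WT to 27.6, 45.6 and 32.0 in D80SV (log2 fold change 3.93, SE 0.39, adjusted p = 1.9e-05). Arntl, the circadian clock factor BMAL1 of the ARNT family, fell from 26.0, 33.4 and 33.3 to 11.96, 9.55 and 11.1 (log2 fold change -1.50, SE 0.14, adjusted p = 9.2e-06). The labels do not give a time of collection. Hif1an, which hydroxylates HIF on an asparagine, fell (log2 fold change -0.57, SE 0.11, adjusted p = 0.0025), a call lost with no composition factor at an adjusted p of 0.36. Egln2, the third prolyl hydroxylase, fell slightly (log2 fold change -0.33, SE 0.11, adjusted p = 0.028), with an adjusted p of 0.060 to 0.14 without any 1 of D60WT replicate 1, D80WT replicate 3, D60SV replicate 2 and the 3 D80SV libraries, and with no composition factor its sign turned (log2 fold change 0.09).

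Of 29 other hypoxia-inducible genes, 8 were higher at D80, 27.6% against the background of 19.4%, and 5 lower, 17.2% against 22%. Plod2, a lysyl hydroxylase of collagen, measured 13.7, 10.5 and 9.58 CPM in D80WT and 26.1, 27.5 and 34.5 in D80SV (log2 fold change 1.39, SE 0.24, adjusted p = 0.00095). It rose without overlap, whereas Ak4 (log2 fold change -1.91, SE 0.24, adjusted p = 0.00012) and Nrn1 (log2 fold change -1.49, SE 0.21, adjusted p = 0.00028) fell. In the same libraries endothelial markers ranged from 224 to 255 CPM in D80SV against 123 to 186 in D80WT, and macrophage markers from 233 to 329 against 83.6 to 123. The part of these cell types in the changes was not tested.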

How the data were processed

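Bulk pylorus RNA was sequenced in 12 libraries, 3 in each of 4 groups of genotype and age. Per the labels' protocols, a stranded TruSeq kit for mRNA was used. The authors deposited raw counts per gene for 23420 symbols, with no normalization, and these counts were the source of every result. STAR 2.5.3a and HTSeq 0.9.1, with edgeR 3.16.5 and build mm10, are named in the submitters' processing notes. The annotation and strand setting were not given in the sources used here. A second table deposited by the authors holds normalized signal, in which 100% of the matched values gave back whole counts equal to the raw ones (tolerance 0.01 count, 15442 genes). That table was used for 1 alternative, with limma after adding a pseudocount of 1.

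Libraries held 20121600 to 27633715 counts. Genes were kept by filterByExpr over the 4 groups (15369 genes), scaled by TMM factors of 0.805 to 1.30, and tested in R 4.3.3 with edgeR 4.0.16, using 1 coefficient per group, all 12 libraries and 8 residual degrees of freedom. Precision was set mainly by the spread between libraries, with a biological coefficient of variation of 24.2%. The contrasts were genotype at each age, age in each genotype, and their interaction. Adjusted p-values are Benjamini-Hochberg over all genes. Isoenzyme ratios used an exact permutation test after adding 0.5 counts. Gene coordinates come from GENCODE M21 (GRCm38) and promoter windows from RefSeq (GRCm38.p6). The code was tested on simulated counts with planted changes.

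The members and gene lists were chosen with earlier results of these data known. All members are named, with per-library values for those past the threshold or past it at 1 age, and up to 4 genes with the smallest p for each pathway list, of which some are counted but not reported by name here. The values of Pfkfb3, Slc16a3 and Ero1l at D80 without single libraries were added after their values were seen. For Pfkp, Pfkfb4, Gapdh, Pgk1, Pkm, Egln3, Car9 and Adm, D80WT replicate 1 is the only single library whose omission at D80 is given. Replicate numbers did not pair libraries: 18 same-number pairs had residual correlations of -0.344 to 0.393 (mean -0.004), so the block was used only as an alternative. Alternatives were 3 other scalings, 2 other filters, DESeq2 1.42.0, limma-voom (limma 3.58.1), the normalized signal, a replicate block, only the 2 groups compared, sex as a covariate, and leaving out libraries.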

Additional observations from a re-analysis of the deposited data

Results flagged for a closer look

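The transgene's effect differed between D60 and D80, by the interaction term of edgeR's quasi-likelihood test with adjustment over all genes, for 1 member and, of the other pathway genes reported here, 4. The interaction was 0.74 on the log2 scale for Pfkm, 2.48 for Eno2, 1.23 for Ddit4 and 1.36 for Plod2, each higher at D80, and -1.61 for Arntl. The adjusted p was 0.036 for Pfkm, 0.012 for Eno2, 0.012 for Ddit4, 0.041 for Plod2 and 0.0046 for Arntl. Ddit4, an inhibitor of mTORC1 signalling, measured 31.7, 41.5 and 36.9 CPM in D60WT, 28.8, 25.6 and 22.3 in D60SV, 23.3, 17.4 and 22.8 in D80WT and 33.8, 32.2 and 37.8 in D80SV, so the groups were separate in opposite directions at the 2 ages. Sex also differed between these groups, and with sex as a covariate the adjusted p was 0.14 for Ddit4, 0.24 for Pfkm and 0.19 for Plod2. That covariate was set by the male D80SV library against the other D80SV libraries, so it is not a clean adjustment for sex. Plod2 also did not pass with limma-voom (0.051) or the replicate block (0.065), nor without any 1 of 8 libraries, the same 8 as for Pfkm, with adjusted p-values of 0.050 to 0.10. Groups of 3 libraries are too small for a test of single outlying libraries.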

How the results depend on the processing

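Of the 15 members called at D80, Pfkm, Hif1a, P4ha1 and Higd1a kept direction and call under all 24 alternatives, and Hk1, Pdk1 and Egln1 under all but no composition factor, where their adjusted p-values were 0.086, 0.21 and 0.13. The call at D80 was lost under 14 for Slc2a1, 13 each for Ndrg1 and P4ha2 and 10 for Bnip3. For Gpi1, Aldoa and Ldha it was lost under 4 each, and for Mxi1 under 3. Between transgenic ages, calls were lost under 18 for Bnip3, 16 for Ero1l, 7 for Aldoa and 5 for Ldha. Among pathway genes, D80 calls were lost under 9 for Pck1, 6 for G6pc and 4 for Pcx, and the D60 call of Ak4 under 11. With no composition factor 6 members were higher and 1 lower at D80 and 6 higher and 3 lower between ages in transgenic mice, and signs at D80 turned from below 0 for 8 members that were not called, Tpi1 (0.047), Gapdh (0.049), Pgk1 (0.160), Pgam1 (0.192), Pkm (0.091), Egln3 (0.215), Kdm3a (0.293) and Ankrd37 (0.248), and for the pathway gene Egln2 (0.085). With upper-quartile factors the sign turned for 1 of them, Kdm3a. Over all genes, the fit with no composition factor called 33.2% higher and 6.51% lower at D80. Between transgenic ages it called 33.5% higher and 7.14% lower. Leaving out 1 library moved Slc16a3 at D80 between -0.0047 (without D80WT replicate 1) and 1.78 (without D80WT replicate 3). The cause was not tested. The lower count at D80 was 4 with only the 2 groups compared and 5 without both D80 libraries rich in neighbouring tissue, and 4 to 21 leaving out 1 library. At D60, 1 member was called higher with upper-quartile factors, DESeq2, no composition factor, only the 2 groups and without both libraries, and 0 to 2 leaving out 1 library; DESeq2 called 1 lower. Between wild-type ages 0 to 2 were called higher leaving out 1 library. Between transgenic ages the lower count was 14 with only the 2 groups, 5 with sex as a covariate and 3 to 13 leaving out 1 library. For the interaction, the higher count was 2 with no composition factor, 3 with DESeq2, 2 with upper-quartile factors, 0 with sex as a covariate and 0 to 3 leaving out 1 library, and the lower count 0 to 10. With the replicate block, 4 members were higher and 9 lower at D80, and 5 and 6 between transgenic ages. Most of these counts are given without the share of all genes called in the same fit. A change in count need not be particular to the members. The share of all called genes that were higher, 49.6% between transgenic ages and 55.3% for the interaction, was 82.4% and 79.3% with no composition factor and, for the interaction, 65.4% under the upper-quartile setting. Low counts limit mainly Ankrd37, Adm and Eno1, and for Eno1 they stand beside sequence shared with other genes.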
